A study of Mus musculus with 40 samples.

Results

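Immortalised brown preadipocyte lines were compared by whether they transcribed Meg3, a long noncoding RNA of the imprinted Dlk1-Dio3 cluster on mouse chromosome 12. All 20 lines came from brown adipose tissue of C57BL/6 mice and were used at passage 6-12, and each gave 1 poly(A)-selected library before differentiation and 1 library at day 8. Differentiation used IBMX, dexamethasone, indomethacin, T3 and insulin, and the labels name no genetic change in any line. A line counted as Meg3-on when both of its libraries held more than 10 CPM of Meg3 (the count scaled to the library's gene counts, in counts per 1e6), and as Meg3-off when both held less than 1 CPM. The classes were therefore chosen by the Meg3 counts of the same libraries. By that rule 7 of the 20 lines were Meg3-on (B1, B3, C4, C6, D1, D2 and D5), 10 were Meg3-off (A2, A3, A5, A6, B5, B6, C2, C3, C5 and D4), and B4, D3 and D6 were left out. The comparison thus used 34 of 40 libraries, 14 from Meg3-on and 20 from Meg3-off lines. The labels name each line by a letter and a number without saying what the letter stands for, and they do not say how many cells founded a line or how it was immortalised.

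In the Dlk1-Dio3 cluster the parental origin of a chromosome decides which RNAs it makes. The maternal copy makes noncoding RNAs in a row, Meg3, then Rian, a host of small nucleolar RNAs and microRNAs, then Mirg, a host of many microRNAs. The paternal copy makes the coding genes Dlk1, Rtl1 and Dio3. An intergenic region methylated on the paternal copy controls both sets, and loss of the maternal RNAs is well known from mouse pluripotent stem cell lines. Dlk1 encodes a membrane protein of preadipocytes that restrains adipocyte formation, and Dio3 encodes the deiodinase that inactivates thyroid hormone.

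The start of Meg3 and the mature microRNAs of the cluster with the most counts on their own symbols are shown because Meg3 sets the classes and the microRNAs lie in the same stretch of the cluster. The RefSeq window around the first Meg3 start, on the plus strand of chr12:109540746-109541045 of build GRCm38.p6, holds TGACGTCA, the letters of a cAMP response element, 57 bases before the start and TATAAA, the letters of a TATA box, 25 bases before it. In the window these letters, searched on both strands, are in capitals, where TATAAA overlaps its own reverse complement. TGACGTCA was present in 1.79% and TATAAA in 13.6% of the 32851 RefSeq windows of the same length. A match is only a match of letters, and neither methylation nor binding was measured.
Meg3 start: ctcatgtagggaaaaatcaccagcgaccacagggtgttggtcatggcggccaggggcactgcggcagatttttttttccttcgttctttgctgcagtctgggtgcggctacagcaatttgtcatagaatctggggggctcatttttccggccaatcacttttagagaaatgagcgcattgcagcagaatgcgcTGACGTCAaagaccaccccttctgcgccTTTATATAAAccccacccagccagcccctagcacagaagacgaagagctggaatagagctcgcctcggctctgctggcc

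The deposited files list 53 microRNA symbols between Dlk1 and Dio3. Mature microRNAs carry no poly(A) tail, so counts on these symbols are not counts of mature microRNAs. In Meg3-on lines 18 of the symbols had a count and held 88 counts in all, against 2 symbols with 2 counts in Meg3-off lines. Mir3072 had 42 counts, spread over 13 of 14 Meg3-on libraries, and 0 counts in all 20 Meg3-off libraries, which allows up to 3 counts over these libraries together. Mir377 had 8 and 0 counts and Mir453 7 and 1. The mature sequences of these 3, from RefSeq GRCm38.p6, follow with the seed (bases 2 to 8, which pair with target RNAs) in capitals, and none of them shared a seed.
mmu-miR-453: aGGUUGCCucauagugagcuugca
mmu-miR-377-5p: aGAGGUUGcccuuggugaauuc
mmu-miR-377-3p: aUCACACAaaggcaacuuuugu
mmu-miR-3072-5p: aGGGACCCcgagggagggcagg
mmu-miR-3072-3p: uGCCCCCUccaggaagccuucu

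The Meg3 values that set the classes were apart by the rule that chose them. In undifferentiated Meg3-on lines Meg3 lay at 30.4 CPM in B1, 70.3 in B3, 157 in C4, 67.8 in C6, 87.9 in D1, 62.5 in D2 and 65.7 in D5. At day 8 it lay at 16.75, 14.1, 40.5, 56.7, 37.1, 23.35 and 49.3 CPM in the same order. In Meg3-off lines it ranged from 0 to 0.192 CPM before differentiation and from 0 to 0.732 CPM at day 8, with A2 highest both times. The Meg3-on line nearest the upper limit was B3 at day 8 and the Meg3-off line nearest the lower limit was A2 at day 8. The lines left out were B4 with 6.55 and 1.17 CPM, D3 with 2.62 and 1.485 CPM, and D6 with 38.7 and 4.85 CPM before and after differentiation. All 7 Meg3-on lines held less Meg3 at day 8, at 0.201 to 0.836 of the earlier level. Bulk libraries cannot tell fewer Meg3-expressing cells from less Meg3 per cell.

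Rian and Mirg set the same lines apart as Meg3 did. Rian lay at 35.4 to 162 CPM in undifferentiated Meg3-on lines and at 0 to 0.306 CPM in Meg3-off lines, and at day 8 at 12.2 to 70.4 CPM against 0.0288 to 1.16 CPM. Within the Meg3-on lines the ratio of Rian to Meg3 CPM stayed between 0.860 and 1.16 before differentiation and between 0.691 and 1.43 at day 8. Some Meg3-off lines held more Rian than Meg3 at day 8. Rian was at 0.985 CPM in C5 and 0.676 CPM in A3, where Meg3 was at 0. In C3 it was at 0.381 CPM, with Meg3 at 0.0953 CPM. Mirg was lower, at 1.87 to 11.1 CPM against 0 to 0.117 CPM in undifferentiated lines and 0.457 to 1.77 CPM against 0 to 0.0564 CPM at day 8. The classes did not overlap for any of the 3 RNAs in either stage, which is given as a description with no test because the classes were chosen on this transcript row. D6 lay inside the Meg3-on range before differentiation for Rian (50.7 CPM) and Mirg (2.79 CPM).

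**Figure D1:**
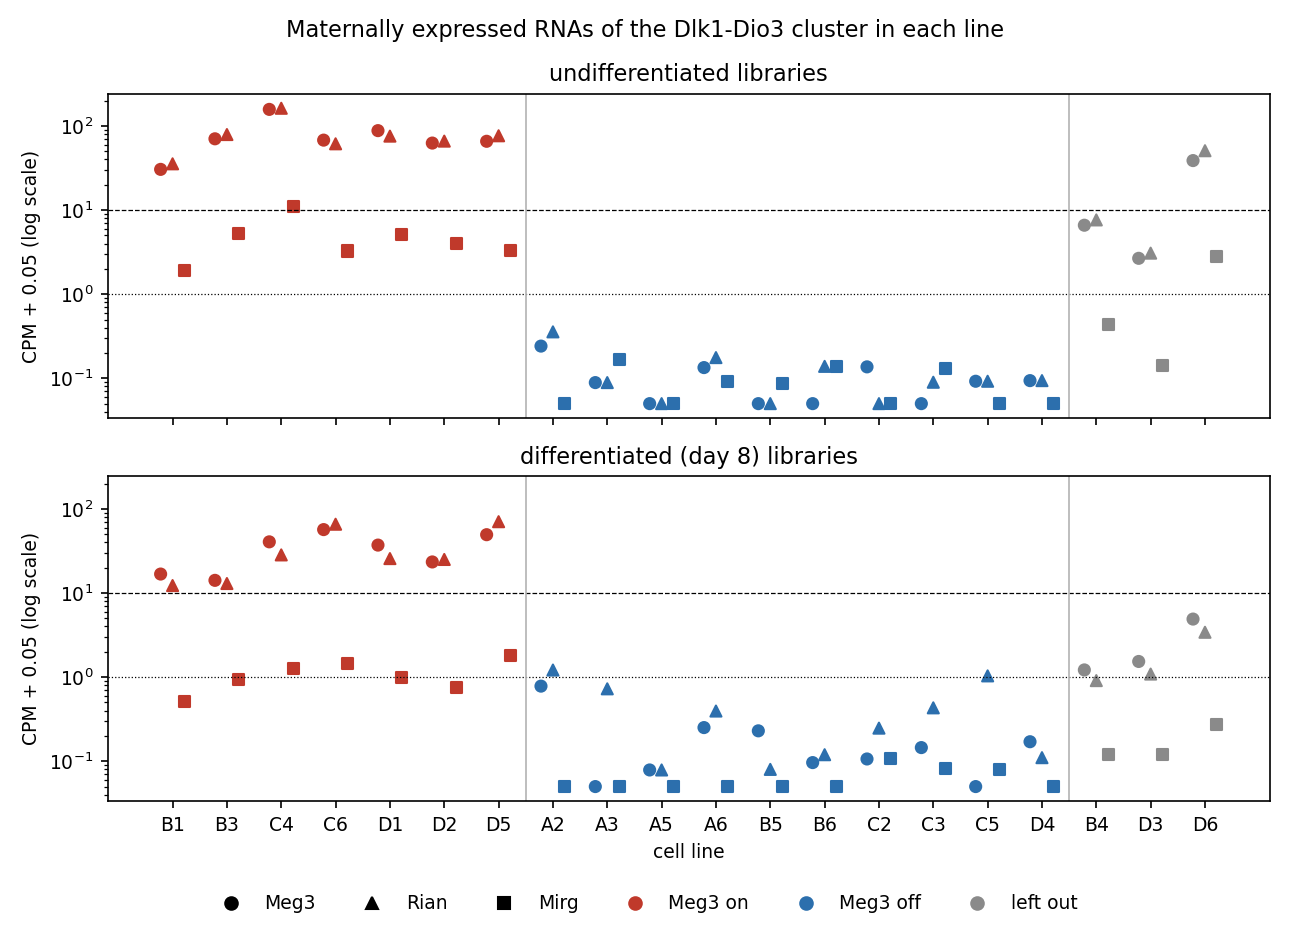
Meg3 (circles), Rian (triangles) and Mirg (squares) in each cell line, as CPM plus 0.05 on a log axis, before differentiation and at day 8, with 1 library per point. Dashed and dotted lines mark the limits of 10 and 1 CPM, and in both stages the 7 Meg3-on lines (red) lie above the 10 Meg3-off lines (blue) for each RNA, with the 3 lines left out in grey.

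Several lines were far more alike than the rest, and this touches every test. Once the mean over lines was taken away, 4 of 190 pairs of lines correlated above 0.75 in both stages, from 0.770 to 0.902: A2 with A5, A5 with B5, C3 with C5, and C6 with D5. Both lines of each pair were in the same class. Letter A held 4 Meg3-off and 0 Meg3-on lines, letter B 2 of each class, letter C 2 Meg3-on and 3 Meg3-off, and letter D 3 Meg3-on and 1 Meg3-off. Counts of genes are therefore also given with 1 line kept of each alike set, without letter A, and with the letter as a covariate. With 1 library per line and stage, p-values measure the spread between these lines only.

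Total gene counts ran from 19535806 to 28074918 in undifferentiated and from 27181830 to 43113838 in day 8 libraries, so that 3 counts, the limit that a count of 0 allows, stood for 0.107 to 0.154 and 0.0696 to 0.110 CPM. Depth overlapped between the classes in both stages. Adiponectin (Adipoq), a hormone made by fat cells, was at or below 0.0443 CPM before differentiation and reached 15.4 to 1188 CPM in Meg3-on and 539 to 1214 CPM in Meg3-off lines at day 8. Ucp1, the uncoupling protein of brown fat, was at 0 to 25.2 CPM and 0.0845 to 50.8 CPM at day 8. C6 and D5 were the lowest lines for fat cell genes: the mean of 24 adipocyte genes on the log2 CPM scale was 4.31 and 6.79 at day 8 there, 8.28 to 8.94 in the other 5 Meg3-on lines and 7.85 to 8.87 in the Meg3-off lines. Markers of immune cells summed to 3.53 to 6.402 CPM in Meg3-on and 3.17 to 7.61 CPM in Meg3-off undifferentiated lines, with Ptprc at or below 0.0868 CPM. Endothelial markers summed to 6.68 to 34.03 against 3.098 to 7.23 CPM, with Cdh5 at or below 0.395 CPM.

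Undifferentiated Meg3-on and Meg3-off lines differed in many genes, and day 8 lines in few. Before differentiation the quasi-likelihood F test of edgeR, adjusted by Benjamini-Hochberg, called 2338 of 13431 tested genes (17.4%) at an adjusted p under 0.05, with 1443 (10.7%) higher and 895 (6.66%) lower in Meg3-on lines. Among them 489 were higher and 79 lower by at least 1 on the log2 scale. Classes that did not overlap at all were found for 192 tested genes (1.43%), of which 190 were called. At day 8 the same test called 24 of 14545 genes (0.165%), 22 higher and 2 lower, while 1444 had an unadjusted p under 0.05, and classes did not overlap for 18 genes (0.124%).

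Over the 13030 genes tested in both stages, the median size of the log2 difference was 0.194 before differentiation and 0.154 at day 8. Of the 1407 genes called higher before differentiation and tested at day 8, 1224 had a positive log2 difference there. Of 876 genes called lower, 725 had a negative one. The median standard deviation between lines within a class was 0.256 on the log2 scale before differentiation and 0.356 at day 8, over the same 13030 genes. Both stages hold the same lines, so these counts are not independent of each other. The share of all tested genes that kept their direction is not given beside these counts. The fit with 1 line kept of each alike set called 512 genes before differentiation, 508 of them among the 2338, and 1 at day 8. Without letter A the counts were 738 and 4, and with the letter as a covariate 827 and 1. Leaving out 1 line at a time gave between 10 genes (without A6) and 63 genes (without C4) at day 8.

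Among coding genes of the cluster, Dio3 was called before differentiation and Dlk1 did not pass the test. Dio3 lay at 0.253, 1.27 and 1.98 CPM (lowest, median and highest) in undifferentiated Meg3-on lines and at 0, 0.0987 and 0.817 CPM in Meg3-off lines. The classes overlapped through A3 and B6 (log2 difference 2.38 ± 0.60, adjusted p = 0.0134, SE over 7 against 10 lines). The adjusted p with 1 line kept of each alike set was 0.0682, and with the letter as a covariate 0.0585. At day 8 Dio3 was at 1.09, 7.84 and 19.8 CPM against 0.0899, 2.895 and 11.3 CPM, with A6 the highest Meg3-off line and C6 the lowest Meg3-on line (log2 difference 1.78 ± 0.77, adjusted p = 0.459).

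Dlk1 was at 70.4, 111 and 329.6 CPM against 2.56, 23.1 and 129 CPM in undifferentiated lines. Of the Meg3-off lines 7 lay at or below 41.99 CPM, and A3, C5 and B6 reached the Meg3-on range (log2 difference 1.87 ± 0.69, adjusted p = 0.0674). At day 8 Meg3-off lines fell apart: C5 held 815 CPM, C3 523 and A3 396, and the other 7 lay between 6.15 and 58.3 CPM. Meg3-on lines held 63.9 to 800.2 CPM (log2 difference 0.62 ± 0.94, adjusted p = 0.852). Meg3 was at 0 CPM in C5 and A3 and at 0.0953 CPM in C3 at day 8, so that high Dlk1 stood beside almost no Meg3 in these 3 lines.

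Rtl1, a retrotransposon-derived gene of the paternal copy, had too few counts to be tested, with 53 counts in undifferentiated Meg3-on and 5 in Meg3-off lines. It lies on the strand opposite to a transcript of the maternal copy, and whether the counting used strand is not given in the sources used here, so reads of both strands may not be separated. At day 8 it was at 0.141 to 1.04 CPM in Meg3-on lines and 0 to 1.100 CPM in Meg3-off lines, where C5, A3 and C3 were again highest.

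The neighbours of the cluster were also higher in part. Of 12 genes beside it, 10 were tested and 7 were higher in undifferentiated Meg3-on lines and 0 lower. Over all tested genes 10.7% were higher and 6.66% lower, and on chromosome 12 as a whole 220 of 375 were higher. The median log2 difference was 0.49 for the neighbours, 0.47 for chromosome 12 and -0.02 over all tested genes. Begain, a synaptic protein gene next to Dlk1, lay at 1.15, 1.41 and 4.59 CPM against 0.0841, 0.288 and 1.01 CPM without overlap (log2 difference 2.20 ± 0.44, adjusted p = 0.0038). Wdr25, a WD-repeat protein gene beyond Begain, was at 4.72, 5.24 and 6.11 CPM against 1.72, 2.597 and 4.92 CPM (log2 difference 0.93 ± 0.20, adjusted p = 0.00595). Evl, Yy1, Wars, Ppp2r5c and Dync1h1 rose by 0.28 to 0.58 on the log2 scale. With 1 line kept of each alike set 2 of the 12 were called, and none of 11 tested at day 8 was called.

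**Figure D2:**
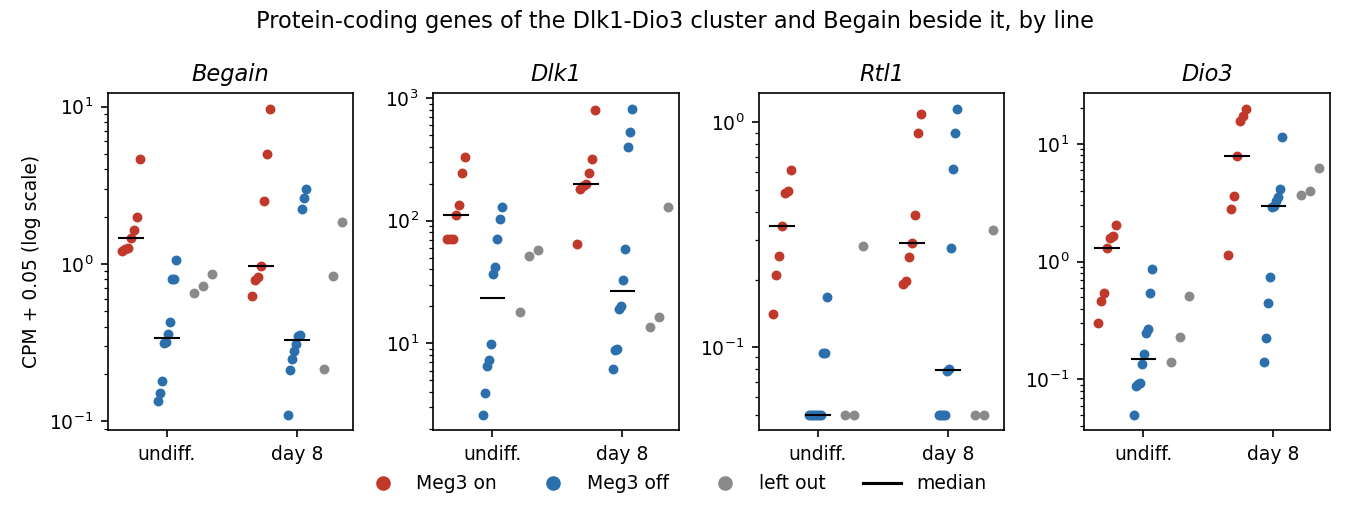
Begain, Dlk1, Rtl1 and Dio3 in Meg3-on (red), Meg3-off (blue) and left-out lines (grey), as CPM plus 0.05 on log axes, before differentiation and at day 8, with 1 point per line and a bar at each class median. Begain is apart between the classes before differentiation, and for Dlk1 and Rtl1 at day 8 Meg3-off lines A3, C3 and C5 lie inside the Meg3-on range or, for C5, above it.

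The neighbours' values stand beside a difference of whole chromosomes. RefSeq gave a chromosome for 82.6% of the genes tested before differentiation. Of 375 tested genes on chromosome 12, 220 were higher and 1 was lower in Meg3-on lines, with a median log2 difference of 0.47. These include 2 symbols between Meg3 and Dio3, both higher, which belong to the stretch that Meg3 begins. Leaving them out gave 218 higher and 1 lower of 373, with the same median. Chromosome 1 had 298 higher and 4 lower of 629, with a median of 0.34. Along chromosome 12 the median was 0.50, 0.47, 0.43, 0.49 and 0.46 in 5 blocks of 75 tested genes by position, and Meg3 lies in the last. Outside chromosomes 1 and 12 the test called 1497 of 10093 genes (14.8%).

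By line, the median level of chromosome 12 genes, set to each gene's median over the 17 lines and to the line's median over all genes, was 0.0922 to 0.380 on the log2 scale in undifferentiated Meg3-on lines. In Meg3-off lines it was between -0.370 and -0.317 in A2, A5, A6, B5, C2, C3 and C5, at -0.0255 in A3, 0 in D4 and 0.397 in B6. B6 therefore had the highest chromosome 12 level of all 17 lines, without Meg3. The difference of class means passed a two-sided exact permutation test over lines for chromosome 12 (0.261 against -0.198, adjusted p = 0.0159 over 40 chromosome and stage values). Chromosome 1 (0.223 against -0.0756), chromosome 17 (-0.0928 against 0.0363) and chromosome 19 (-0.0841 against 0.0412) passed the same exact test, each with an adjusted p of 0.0159. With 1 line kept of each alike set (6 against 7 lines) the adjusted exact p values for chromosomes 12, 1, 17 and 19 were 0.132, 0.245, 0.0583 and 0.0583. At day 8 chromosome 12 was at 0.131 against -0.0581 (adjusted exact p = 0.231), and no chromosome passed. DNA copy number was not measured, and the part of these shifts in the differences of single genes was not tested.

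**Figure D3:**
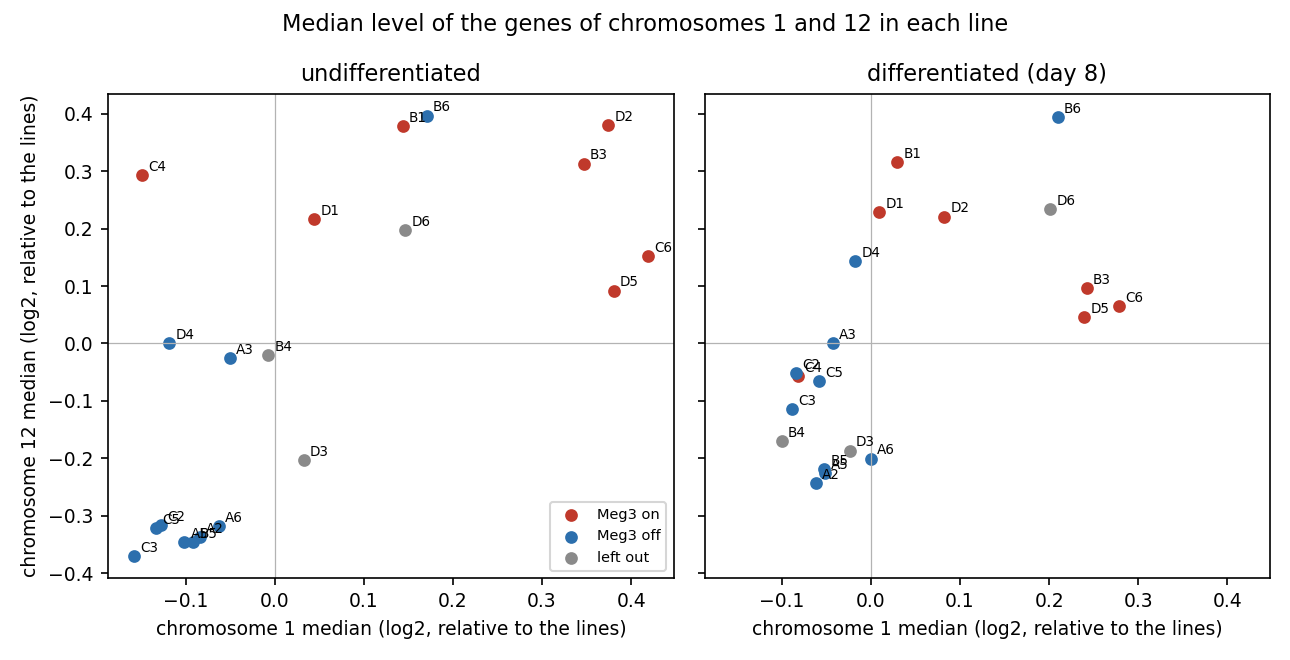
Median level of the genes of chromosome 12 against chromosome 1 in each line, on the log2 scale relative to each gene's median over lines, before differentiation and at day 8, coloured by Meg3 class. Before differentiation the Meg3-on lines lie above 0 for chromosome 12, 7 Meg3-off lines lie between -0.370 and -0.317, and Meg3-off line B6 lies at 0.397.

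Only Cthrc1 and Col4a6 were called in both stages, apart in both and at 5 CPM or more on average in the higher class in both stages, and no gene met these conditions in the lower direction. In all, 17 genes were called in both stages in the same direction. Cthrc1, a secreted protein of matrix-producing fibroblasts, was at 29.9 CPM in B1, 68.99 in B3, 47.15 in C4, 341 in C6, 52.3 in D1, 72.7 in D2 and 148.5 in D5 before differentiation. Meg3-off lines ranged from 0 to 6.23 CPM, with A3 highest (log2 difference 5.96 ± 0.77, adjusted p = 0.000207). At day 8 Cthrc1 was lower in every Meg3-on line, at 1.51, 3.101 and 31.3 CPM against 0, 0.0895 and 0.563 CPM (log2 difference 5.73 ± 0.87, adjusted p = 0.0107).

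Col4a6, a basement membrane collagen chain encoded on the X chromosome, lay at 2.58, 11.4 and 25.8 CPM against 0.1302, 0.497 and 2.54 CPM before differentiation (log2 difference 4.08 ± 0.55, adjusted p = 0.000262). At day 8 it was at 2.24, 7.04 and 10.5 CPM against 0.0282, 0.669 and 1.44 CPM (log2 difference 3.17 ± 0.51, adjusted p = 0.0147). Both genes were chosen for classes without overlap, so separation within the letters B, C and D follows from that choice. The adjusted p at day 8 with the letter as a covariate was 0.0861 for Cthrc1 and 0.201 for Col4a6. With 1 line kept of each alike set the adjusted p of both at day 8 was 0.125, and without C6, D5 and D2 it was 0.0641 for Cthrc1 and 0.0611 for Col4a6.

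Before differentiation the 5 called genes with the largest rise, apart between the classes and at 5 CPM or more, were Cthrc1, Col4a6, Hhip, Nfatc4 and Tmem200a. Hhip encodes a membrane protein that binds and holds back hedgehog ligands, and it lay at 4.51, 20.2 and 58.01 CPM against 0, 1.24 and 4.49 CPM (log2 difference 3.76 ± 0.64, adjusted p = 0.00142). Nfatc4, a transcription factor activated by calcineurin, was at 19.8, 56.4 and 89.04 CPM against 0.192, 1.796 and 18.2 CPM (log2 difference 3.51 ± 0.68, adjusted p = 0.00303). A3 was the Meg3-off line nearest to the Meg3-on lines, followed by D4 and B6. Tmem200a, a transmembrane protein gene, lay at 13.8, 17.4 and 30.7 CPM against 0.824, 1.54 and 4.08 CPM (log2 difference 3.45 ± 0.32, adjusted p = 8.74e-06), the smallest standard error of the 5.

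In the lower direction the rule named Eda, Pkp1, Frat2, Efna5 and a transcript without a gene name. Eda, the TNF-family ligand ectodysplasin, lay at 0, 1.18 and 3.42 CPM against 4.300, 9.19 and 12.5 CPM (log2 difference -2.80 ± 0.55, adjusted p = 0.00318). Eda2r, a receptor for one form of it, went the other way, at 35.99, 91.6 and 131 CPM against 16.3, 27.7 and 58.3 CPM (log2 difference 1.35 ± 0.28, adjusted p = 0.00481). Pkp1, a plaque protein of desmosomes, was at 0.318, 2.48 and 3.01 CPM against 5.48, 8.59 and 20.3 CPM (log2 difference -2.43 ± 0.40, adjusted p = 0.0012). Frat2, a protein that binds GSK3 and promotes Wnt signalling, was at 1.504, 1.96 and 2.44 CPM against 4.35, 5.97 and 9.17 CPM (log2 difference -1.63 ± 0.18, adjusted p = 3.39e-05). Efna5, an ephrin ligand, was at 7.44, 8.34 and 12.3 CPM against 12.7, 16.04 and 46.2 CPM (log2 difference -1.03 ± 0.25, adjusted p = 0.0105). At day 8 the classes overlapped for Eda, Pkp1, Frat2 and Efna5 and none of the 4 was called.

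**Figure D4:**
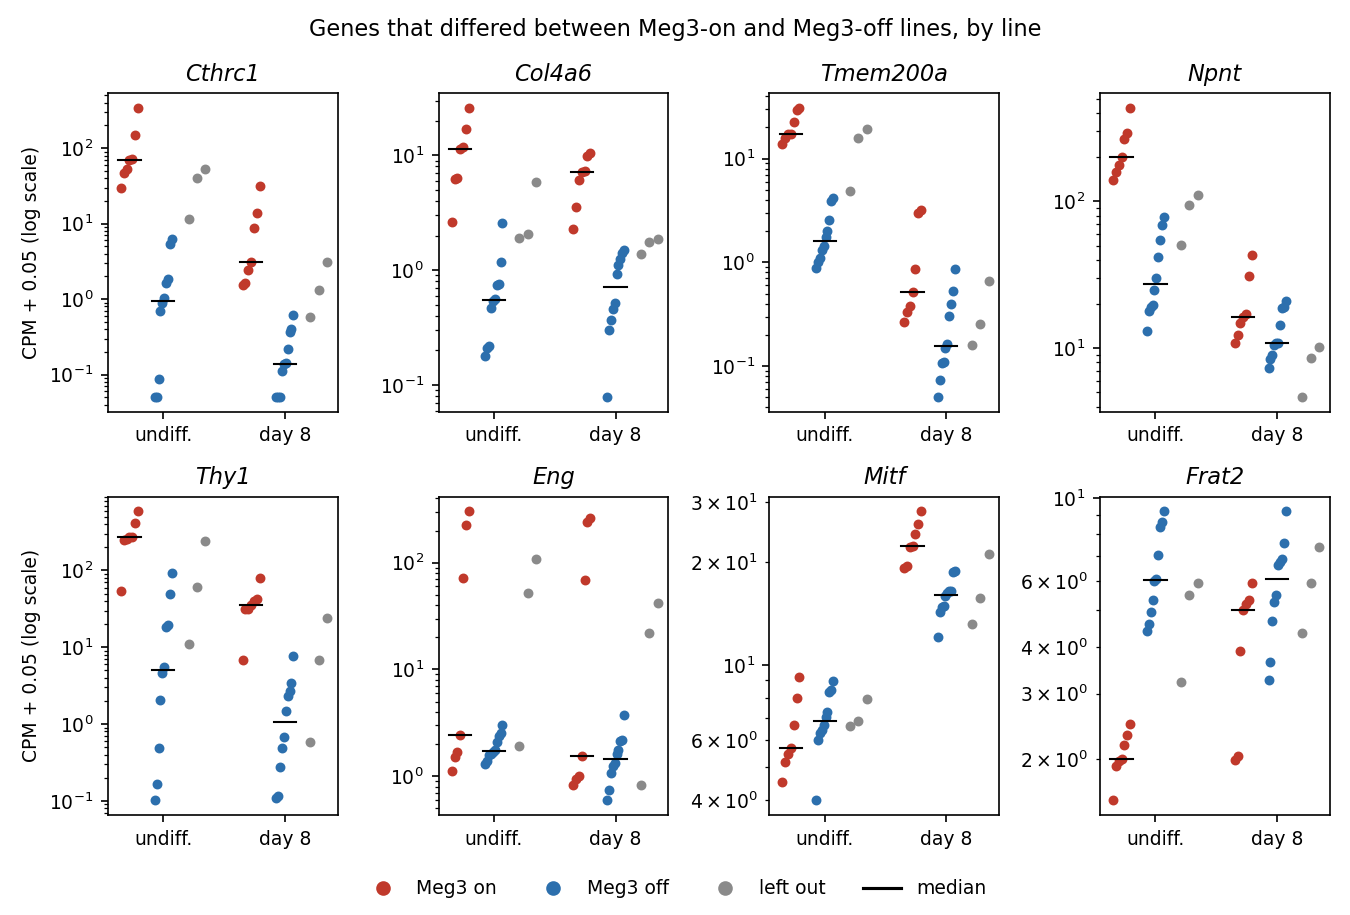
Cthrc1, Col4a6, Tmem200a, Npnt, Thy1, Eng, Mitf and Frat2 in Meg3-on (red), Meg3-off (blue) and left-out lines (grey), as CPM plus 0.05 on log axes, before differentiation and at day 8, with 1 point per line and a bar at each class median. Cthrc1 and Col4a6 are apart in both stages, Tmem200a, Npnt and Frat2 before differentiation and Mitf at day 8, while Eng is high in 3 Meg3-on lines and low in the other 4.

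At day 8 the rule named Mitf beside Cthrc1 and Col4a6. Mitf, a transcription factor best known from pigment cells, lay at 19.2, 22.3 and 28.2 CPM against 12.01, 16.01 and 18.8 CPM (log2 difference 0.57 ± 0.10, adjusted p = 0.033). Before differentiation it was at 4.47, 5.65 and 9.19 CPM against 3.95, 6.77 and 8.92 CPM with overlap (log2 difference -0.08 ± 0.17, adjusted p = 0.758). The 24 genes called at day 8 also held genes below 5 CPM, of which 3 are named here after their values were seen. Mchr1, a receptor for melanin-concentrating hormone, lay at 1.196, 1.83 and 3.12 CPM against 0, 0.186 and 0.492 CPM (log2 difference 3.27 ± 0.53, adjusted p = 0.0147). Kcns3, a potassium channel subunit gene on chromosome 12, was lower, at 0.0274, 0.217 and 0.6204 CPM against 0.648, 1.71 and 4.91 CPM (log2 difference -3.22 ± 0.62, adjusted p = 0.0415).

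The 1 gene still called at day 8 both with the letter as a covariate and with 1 line kept of each alike set was 5730507C01Rik on chromosome 12. It was at 0.435, 1.06 and 2.16 CPM against 0, 0.0285 and 0.151 CPM (log2 difference 4.82 ± 0.59, adjusted p = 0.000876), and without letter A its adjusted p was 0.0695. Before differentiation it was at 2.91, 4.33 and 4.96 CPM against 0.437, 0.855 and 1.596 CPM (log2 difference 2.26 ± 0.23, adjusted p = 2.02e-05). The classes were apart in both stages, from which separation within letters B, C and D follows. Of the 24 genes called at day 8, 14 had classes without overlap.

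**Figure D5:**
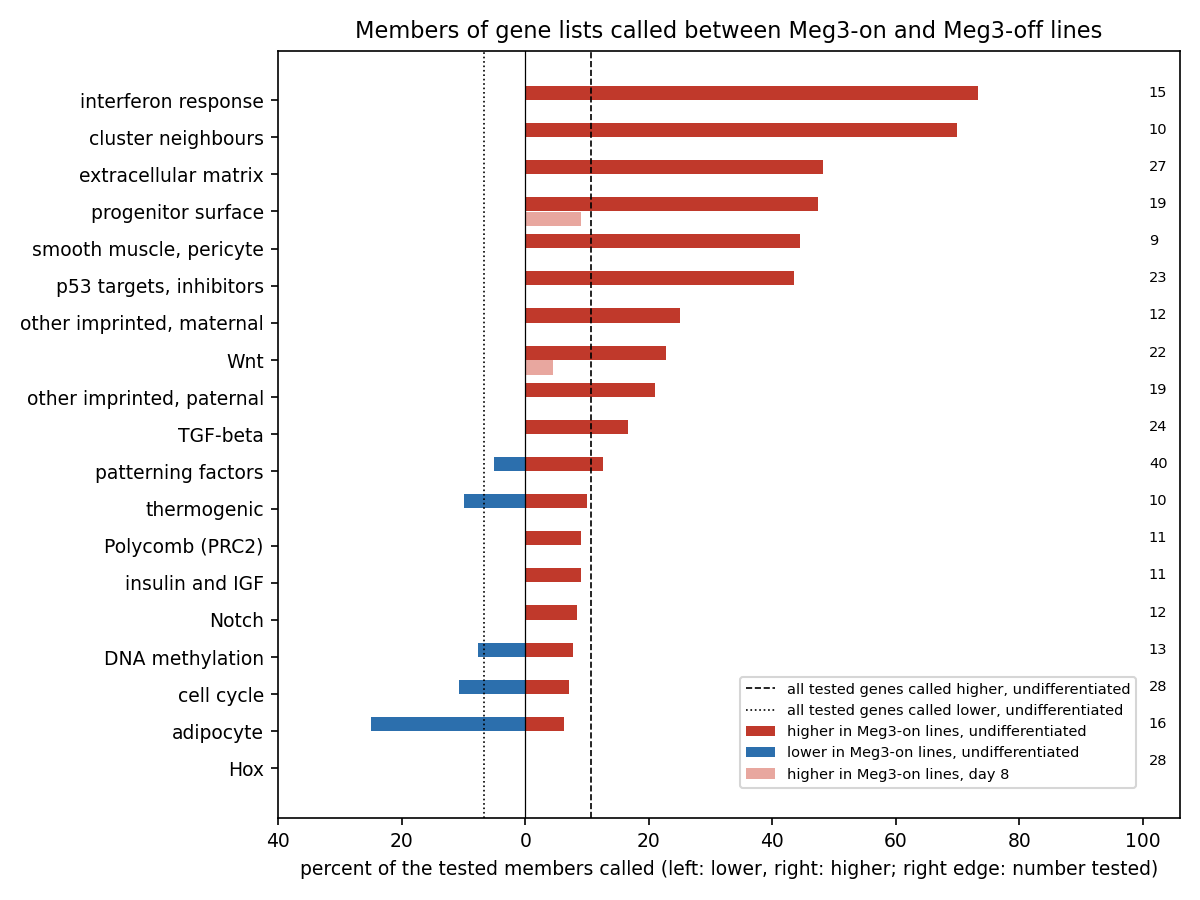
Share of the tested members of each gene list that was called higher or lower in undifferentiated Meg3-on lines and at day 8, in percent. Among all genes tested before differentiation, a dashed line marks the 10.7% called higher and a dotted line the 6.66% called lower. Interferon response genes have 11 of 15 higher.

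Of 20 interferon response genes, 15 were tested before differentiation. Among these 15, 11 were higher in Meg3-on lines and 0 lower, against 10.7% and 6.66% of all tested genes. The median log2 difference of the list was 1.45. The listed genes answer to interferon or to viral nucleic acid. Irf7, which induces interferon genes, was at 1.34, 3.45 and 23.7 CPM against 0.434, 1.17 and 2.296 CPM (log2 difference 2.62 ± 0.50, adjusted p = 0.00267). Ddx58, the RNA sensor RIG-I, was at 36.6, 47.3 and 87.6 CPM against 26.4, 30.5 and 41.1 CPM (log2 difference 0.82 ± 0.16, adjusted p = 0.00363). Gbp2, Ifit1, Ifit3, Isg15, Oasl2, Rsad2, Stat2 and Usp18 were among the others, and Rsad2 lies on chromosome 12, where 220 of 375 were higher. The mean log2 CPM of the list was 4.27 in D1, 3.46 in B1, 3.06 in B3, 2.48 in D2 and 2.12 in C4, but 0.826 in C6 and 0.937 in D5, inside the range of 0.664 to 1.73 of the Meg3-off lines. In the fit on 1 line of each alike set 10 members were called, without C6, D5 and D2 13, and with the letter as a covariate 5. At day 8 none of 20 was called, and the list mean ranged from 5.75 to 7.94 in Meg3-on and from 3.07 to 8.39 in Meg3-off lines.

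Targets of p53 and cell cycle inhibitors were called higher in 10 of 23 tested and lower in 0 before differentiation. Over all tested genes the shares were 10.7% and 6.66%, and the median log2 difference of the list was 0.37. Phlda3, an inhibitor of AKT, was at 112, 147 and 201 CPM against 80.8, 96.6 and 121 CPM (log2 difference 0.67 ± 0.10, adjusted p = 0.000478). Btg2, an antiproliferative gene, was at 33.5, 44.9 and 81.5 CPM against 19.5, 27.4 and 35.5 CPM (log2 difference 0.91 ± 0.15, adjusted p = 0.00132). Zmat3, an RNA-binding protein gene, was at 109.6, 145 and 227 CPM against 78.9, 105 and 119 CPM (log2 difference 0.59 ± 0.13, adjusted p = 0.00789). Eda2r, given above, also belongs to this list, with Cdkn1a, Cdkn2a, Ccng1, Trp53inp1, Sesn2 and Tnfrsf10b. Phlda3 and Btg2 lie on chromosome 1, where 298 of 629 genes were higher. With the letter as a covariate 2 members were called and with the alike sets reduced 4, and at day 8 none of 22 was called.

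Matrix genes were higher in 13 of 27 tested and lower in 0, against 10.7% and 6.66% of all tested genes. The median log2 difference of the list was 0.59. Col15a1, a basement membrane collagen, was at 4.96, 15.1 and 48.3 CPM against 0.358, 1.36 and 5.76 CPM (log2 difference 3.57 ± 0.55, adjusted p = 0.000826). Fmod, a collagen-binding proteoglycan, lay at 0.556, 11.04 and 28.1 CPM against 0.102, 1.31 and 4.08 CPM (log2 difference 2.93 ± 0.67, adjusted p = 0.00796). Col5a2, a chain of a fibrillar collagen, lay at 1064, 1564 and 2033 CPM against 792, 1019 and 1467 CPM (log2 difference 0.59 ± 0.13, adjusted p = 0.0082). The others were Bgn, Col1a1, Col3a1, Col5a1, Col6a3, Col12a1, Fn1, Thbs1, Mgp and Vcan. Ltbp2, a latent TGF-beta binding protein of the matrix listed with the TGF-beta genes, was at 26.8, 149 and 573 CPM against 2.82, 14.8 and 62.9 CPM (log2 difference 3.29 ± 0.59, adjusted p = 0.00184), and in that list 4 of 24 were higher and 0 lower. Ltbp2 lies on chromosome 12, where 220 of 375 tested genes were higher. The part of the shifts of chromosomes 1 and 12 in the matrix calls was not tested. From the alike sets reduced to 1 line each, 3 matrix genes were called, and without letter A 1. At day 8 no matrix gene was called, while 28 of 30 had a positive log2 difference, with a median of 0.81.

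Progenitor markers were higher in 9 of 19 tested and lower in 0, against 10.7% and 6.66% of all tested genes. The median log2 difference of the list was 0.63. Pdgfra, the PDGF receptor of fibroblastic progenitors, was at 109, 146 and 209 CPM against 2.08, 8.602 and 104 CPM without overlap (log2 difference 2.89 ± 0.58, adjusted p = 0.00381). Thy1, the surface protein CD90, lay at 54.6, 271 and 593 CPM against 0.0512, 4.98 and 91.6 CPM before differentiation (log2 difference 4.02 ± 0.93, adjusted p = 0.00864) and at 6.78, 35.8 and 78.6 CPM against 0.0575, 1.03 and 7.63 CPM at day 8 (log2 difference 4.37 ± 0.78, adjusted p = 0.0278). C6 was the lowest Meg3-on line for Thy1 both times, below D4 before differentiation and below A3 at day 8. Prrx1, a homeobox factor of mesenchyme that is also among the patterning factors, was at 465, 517 and 634 CPM against 250.2, 342 and 394 CPM without overlap (log2 difference 0.69 ± 0.09, adjusted p = 0.000207). Ly6a, F3, Cd24a, Cd81, Gata2 and Eng were the others, and with 1 line kept of each alike set 4 members were called.

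Eng, the TGF-beta co-receptor CD105, was called in both stages on 3 lines alone. Before differentiation it was at 305 CPM in D5, 226 in C6 and 71.9 in D2, but at 1.08 to 2.37 CPM in the other 4 Meg3-on lines and at 1.26 to 2.94 CPM in Meg3-off lines (log2 difference 5.53 ± 1.01, adjusted p = 0.00211). At day 8 the same 3 lines held 261, 240.1 and 69.4 CPM and all other lines of both classes at most 3.69 CPM (log2 difference 5.67 ± 1.12, adjusted p = 0.0478). Without these 3 lines the log2 difference was -0.17 (adjusted p = 0.693) before differentiation and -0.57 (adjusted p = 0.566) at day 8. Among the lines left out, B4 and D3 held 109 and 51.6 CPM before differentiation.

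Smooth muscle and pericyte genes were higher in 4 of 9 tested and lower in 0, against 10.7% and 6.66% of all tested genes. Cspg4, the pericyte proteoglycan NG2, lay at 6.19, 32.8 and 112 CPM against 0.563, 1.605 and 8.76 CPM (log2 difference 3.83 ± 0.61, adjusted p = 0.000957), and Rgs5, Cnn1 and Acta2 were the other 3. The summed level of the list was 2914 to 4306 CPM in Meg3-on and 1995 to 4670.0 CPM in Meg3-off lines, with Myh11, a marker of mature smooth muscle, at or below 4.82 CPM. Of the Schwann and neural list 3 of 4 tested were higher, Ncam1, Mbp and Tubb3, while Sox10 stayed at or below 0.0968 CPM and the list summed to 68.2 to 189.5 against 46.7 to 84.1 CPM. Flt1 and Kdr, receptors for VEGF, were higher in the endothelial list, 2 of 3 tested. With 1 line kept of each alike set, or without C6, D5 and D2, 0 of the Schwann and neural and 0 of the endothelial genes were called, and 2 smooth muscle and pericyte genes were. The part of other cells in these results was not tested.

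Among imprinted genes outside the cluster a few were called higher and 0 lower before differentiation. Over all tested genes 10.7% were higher and 6.66% lower, so 0 lower among so few genes says little. Of 12 tested genes expressed from the maternal copy 3 were higher, Cd81, Trappc9 and H13, and of 19 expressed from the paternal copy 4 were, Igf2, Peg3, Usp29 and Airn. Igf2, an embryonic growth factor, lay at 0.744, 1.46 and 3.75 CPM against 0, 0.2205 and 0.883 CPM (log2 difference 2.62 ± 0.51, adjusted p = 0.00307), and at day 8 at 5.37, 15.7 and 127 CPM against 1.14, 3.14 and 12.4 CPM (log2 difference 2.82 ± 0.65, adjusted p = 0.108). Peg3, a zinc finger gene, was at 8.43, 66.1 and 104 CPM against 5.52, 13.1 and 36.03 CPM (log2 difference 1.75 ± 0.50, adjusted p = 0.0238). Airn overlaps Igf2r on the opposite strand, and reads of both may not be separated. Of the maternal list 1 was called with the letter as a covariate, 0 without letter A and 1 with the alike sets reduced, and of the paternal list 1, 1 and 2. No member of either list was called at day 8.

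Wnt genes were higher in 5 of 22 tested and lower in 0, against 10.7% and 6.66% of all tested genes. Fzd4, a Wnt receptor, was at 10.4, 16.7 and 38.5 CPM against 4.14, 7.14 and 13.3 CPM (log2 difference 1.57 ± 0.26, adjusted p = 0.0012), and Axin2, a feedback inhibitor, Dkk3, Wnt9a and Wnt11 were the others. Wnt11, a Wnt ligand, was also called at day 8, at 2.79, 17.6 and 33.01 CPM against 1.44, 2.83 and 5.89 CPM (log2 difference 2.37 ± 0.44, adjusted p = 0.0358). Of 40 tested patterning factors 5 were higher (Prrx1, Prrx2, Twist1, Meox1 and Tbx3) and 2 lower (Gata6 and Foxp2), shares close to the 10.7% and 6.66% over all tested genes. Twist1 lies on chromosome 12, where 220 of 375 tested genes were higher. No Hox gene was called among 28, and without C6, D5 and D2 2 were higher and 2 lower.

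Adipocyte genes were lower in 4 of 16 tested before differentiation and higher in 1, against 6.66% lower and 10.7% higher over all tested genes. Acsl1, an acyl-CoA synthetase, lay at 26.8, 42.4 and 55.2 CPM against 55.2, 67.8 and 91.4 CPM without overlap (log2 difference -0.68 ± 0.14, adjusted p = 0.00475), and Agpat2, Fabp4 and Plin4 were the others, with Cebpd, an early factor of fat cell formation, higher. Each of the letter as a covariate, the omission of letter A and the reduction of the alike sets left 1 called lower and 0 higher. At day 8 none of 24 was called. In the thermogenic list Slc29a1 was lower and Ppargc1b higher of 10 tested, and none of 18 was called at day 8. Cell cycle genes were higher in 2 (Mcm6, Ccne1) and lower in 3 (Kif11, Bub1, Ccnb1) of 28, also close to the shares over all tested genes. The DNA methylation list, with the enzymes that write and keep the mark, had Zfp57 higher and Hells lower of 13, and Dnmt3a was at 22.99 to 37.7 CPM against 22.4 to 41.4 CPM (log2 difference 0.27 ± 0.12, adjusted p = 0.128). The PRC2 list had 1 of 11 higher (Rbbp7), the Notch list 1 of 12 (Hes1) and the insulin and IGF list 1 of 11 (Igfbp4). Shares called higher in these lists and in the thermogenic and DNA methylation lists were close to the 10.7% over all tested genes. No member of the 7 lists of this paragraph was called at day 8. In either stage no member of the immune, skeletal muscle, cartilage and bone, mesothelial and epithelial, sex-linked and germline lists was called.

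With both stages in 1 fit and the stage as a covariate, 1948 of 14244 genes (13.7%) were called, 1292 higher and 656 lower. Each line enters this fit with 2 libraries, and its p-values are too small where lines keep their differences. With limma-voom in place of edgeR 1944 genes were called without a block and 1139 with the cell line as a random replicate block, and edgeR called 522 on the summed counts of both libraries of a line. Cthrc1 had a log2 difference of 5.87 ± 0.60 (adjusted p = 7.55e-08) in edgeR, 6.80 ± 0.75 (adjusted p = 2.09e-07) in limma-voom without the block and 6.88 ± 0.77 (adjusted p = 6.9e-07) in limma-voom with it. Dlk1 was not called in edgeR, at 1.27 ± 0.62 (adjusted p = 0.167). It was called in limma-voom, at 2.43 ± 0.60 (adjusted p = 0.00701) without the block and 2.42 ± 0.63 (adjusted p = 0.0154) with it, so that the call changed with the tool and not with the block.

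The difference between the classes itself differed between the stages for 18 of 14244 genes (0.126%), with the cell line as a block, and 1926 had an unadjusted p under 0.05. The log2 difference moved down at day 8 for 14 of them and up for 4. Npnt, a matrix ligand of integrins, was at 141, 201 and 433 CPM against 13.1, 27.5 and 77.8 CPM before differentiation and at 10.8, 16.2 and 43.4 CPM against 7.25, 10.8 and 20.8 CPM at day 8. The classes were apart before and overlapped after, and the log2 difference changed by -2.24 ± 0.39 (adjusted p = 0.0345). Lama4, a laminin chain of basement membranes, was at 2.23, 9.39 and 48.2 CPM against 0.1302, 0.452 and 5.39 CPM before differentiation. At day 8 it was higher in both classes, at 168, 462 and 585 CPM against 217, 341 and 427 CPM, and its log2 difference changed by -3.62 ± 0.66 (adjusted p = 0.0401).

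Kctd15, a BTB-domain protein gene, lay at 13.2, 21.6 and 51.8 CPM against 0.1302, 7.73 and 25.1 CPM before differentiation and at 8.898, 21.6 and 27.96 CPM against 2.65, 17.04 and 59.8 CPM at day 8, a change of -2.15 ± 0.39 (adjusted p = 0.0345). In the other direction Rab6b, a small GTPase of the Golgi, was at 13.9, 19.2 and 29.8 CPM against 10.02, 40.5 and 80.3 CPM and then at 14.1, 27.7 and 30.5 CPM against 7.79, 26.1 and 43.9 CPM, a change of 1.10 ± 0.20 (adjusted p = 0.0345). Trmt112, a partner of several methyltransferases, was at 18.2, 20.9 and 23.9 CPM against 21.6, 30.99 and 35.1 CPM before differentiation and closer at day 8, at 43.1, 45.7 and 52.1 CPM against 43.2, 51.2 and 67.3 CPM, a change of 0.41 ± 0.08 (adjusted p = 0.0438). With 1 line kept of each alike set, or without letter A, edgeR's interaction test called 0 genes, with 1154 and 1097 at an unadjusted p under 0.05. Leaving out 1 line at a time gave from 0 genes (without A2, A5, B3 or C5) to 56 (without A3). The undifferentiated files hold tallies of low-quality reads above 0 and the day 8 files do not, so that effects of stage and of read counting cannot be told apart.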

How the data were processed

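Poly(A) RNA of 20 brown preadipocyte lines was sequenced with a stranded kit as paired reads, 1 undifferentiated and 1 day 8 library per line, per the labels' protocols. The authors deposited whole-number counts per gene symbol. STAR, HTSeq and the build mm9 are named in the submitters' processing notes; the sources used here give no version, annotation or strand setting. Rows that name no gene, 30.1% ± 0.614 of all counts (SD, 20 libraries) before differentiation and 21.2% ± 1.11 at day 8, were left out, as were 125 symbols that differ only in letter case, leaving 29787 symbols. Total gene counts limit the precision, and the limit of 3 counts covers counting error only.

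CPM is a count divided by the library's gene counts. The members, lists and tests were chosen with earlier results of these data known, and the classes with the Meg3 counts themselves. Each stage was tested with edgeR 4.0.16 (TMM, quasi-likelihood F test, minimum count 10, adjusted p under 0.05) in R 4.3.3, with both stages in 1 fit (stage as covariate) and an interaction of stage and class with the cell line as a block. Meg3, Rian and Mirg were described without a test. Log2 differences are Meg3-on minus Meg3-off, and their SE is the log2 difference divided by the root of F. The code was tested on simulated data.

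The libraries of a line in both stages come from the same line and so pair the samples: deviations from the stage means correlated by 0.0721 (D6) to 0.545 within a line. Named genes were the cluster's genes. To these came the called genes without overlap and with at least 5 CPM in the higher class, up to 5 per direction and stage and up to 10 per direction called in both stages. Up to 3 interaction genes per direction and up to 4 members per list with the smallest p completed them. Alternatives were RLE scaling, DESeq2 1.42.0, limma-voom (limma 3.58.1), other count filters, the line letter, Meg3 as a continuous covariate, a replicate block and omitted lines. Leaving out letter A, or all but 1 of alike lines, was chosen after seeing the data. Promoter and microRNA sequences and the chromosome of each symbol come from RefSeq GRCm38.p6, and no coordinate of the files was used. The values of 1 gene are not reported here.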

Additional observations from a re-analysis of the deposited data

Results flagged for a closer look

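Among 83 groups of values searched for a line far from the others of its class, 3 held one, and chance gives about 1 in 20 groups. Pkp1 was at 0.318 CPM in B1, below the other undifferentiated Meg3-on lines. Mitf was at 3.95 CPM in C2 and Trmt112 at 21.6 CPM in B6, each below the other undifferentiated Meg3-off lines.

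The difference between the classes changed between the stages, by the interaction test with the line as a block, for 5 named genes. The day 8 log2 difference less that before was -3.62 for Lama4, -2.24 for Npnt and -2.15 for Kctd15, and it was 1.10 for Rab6b and 0.41 for Trmt112.

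Meg3 was also present in lines outside both classes, above every Meg3-off line. B4 held 6.55 CPM before differentiation and 1.17 CPM at day 8, D3 2.62 and 1.48 CPM, and D6 38.7 and 4.85 CPM.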

How the results depend on the processing

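The 2338 genes called before differentiation became 827 with the line letter as a covariate, 738 without letter A and 512 with 1 line kept of each alike set. The 24 genes at day 8 became 194 with DESeq2, 14 with a minimum count of 30, 1 with the letter, 4 without letter A and 1 with 1 line of each alike set. The 1948 genes of the fit over both stages became 744 with the letter, 522 with summed libraries, 397 without letter A and 485 with 1 line of each alike set. With the cell line as a random replicate block, which uses the pairing of the 2 libraries of a line, that count was 1139 in limma-voom, against 1944 in limma-voom without the block. The 18 interaction genes became 0 without the replicate block (1241 at an unadjusted p under 0.05 in edgeR), 0 without letter A, 0 with 1 line of each alike set and 421 without C6, D5 and D2. The log2 difference of Eng reversed to -0.17 before differentiation and -0.57 at day 8 without C6, D5 and D2, the lines that held its high values. The cause of the changes in these counts was not tested.

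Leaving out 1 line at a time gave 1642 to 3080 genes before differentiation, 10 to 63 at day 8, 1352 to 2424 over both stages and 0 to 56 in the interaction. At day 8 the count moved by more than 1.5 times without C4 (63), D1 or D4 (14 each), A2 or C3 (13 each), A5 (12), B5 or D5 (11 each) and A6 (10). In the interaction it did so without A3 (56), B6 (42), D4 (32), C2, C4, C6 or D5 (8 each), C3 (6), A6 (4), B5 (3), and A2, A5, B3 or C5 (0 each). RLE scaling, limma-voom in each stage and no count filter kept the counts of both single stages within 1.5 times. Of 85 called results on single genes, 35 were called under every alternative and 83 kept their direction. Class limits of 5 and 2 CPM gave the same classes and so no other value. Libraries at day 8 were deeper and the spread between lines was wider there. The part of either in the number of calls was not tested.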
